A study of Mus musculus with 12 samples.

Results

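The tumour necrosis factor (TNF) and TNF receptor superfamilies were followed in the mouse colon by gene expression arrays. Members were taken by name: a probe set of the array belonged to the family where its only gene symbol in the platform annotation begins with Tnfsf or Tnfrsf or is one of the older family names (Tnf, Lta, Ltb, Ltbr, Cd40, Cd40lg, Cd70, Cd27, Fas, Fasl, Eda, Edar, Eda2r and Ngfr). This gave 43 genes, 16 ligands and 27 receptors, of 22180 genes measured, and each was read by 1 probe set. The naming rule itself uses no measured value, although the family was picked for description with earlier results of these data known. Another 2 probe sets that carry several symbols were left out, so Tnfsf12 and Tnfsf13 were not analysed here. The 12 arrays each hold total RNA of a colon from 4 genotypes, 3 arrays per genotype: IL10+/+ STING+/+ (WT), IL10-/- STING+/+ (IL10KO), IL10+/+ STING-/- (SKO) and IL10-/- STING-/- (DKO). The labels call the genes knocked out without naming the constructs, no treatment is named, and neither age nor strain is given. Nor do they state whether each sample of a genotype is a different animal, and a p-value therefore speaks only of the spread among these samples, which may be technical. The design text sets the IL10KO colon against the colon lacking both genes.

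TNF family ligands are mostly membrane proteins that act as trimers, on the cell surface or after release, and each binds 1 or a few receptors with cysteine-rich repeats outside the cell. Some receptors carry a death domain that can recruit caspases, many bind TRAF adaptors and switch on NF-kB and MAP kinase signalling, and decoy receptors bind ligand without passing on a full signal. In the gut the family is known for the TNF made by activated myeloid and T cells, for the lymphotoxins that shape lymphoid follicles, for co-stimulation of T cells and for epithelial death and repair. Interleukin-10 restrains cytokine production by macrophages and T cells, and STING (encoded by Sting1) relays the sensing of DNA in the cytosol.

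The promoters shown are those of Tnf, Tnfrsf8, Tnfrsf9 and Tnfrsf12a. Their difference between IL10KO and WT passed the test under all 18 alternatives tried for single genes, 12 of which left out 1 array. Each run holds the 250 bases before the RefSeq start on assembly GRCm38.p6, 5′ to 3′ on the gene's strand, in lower case with motif matches in capitals. The motifs searched on both strands were the NF-kB consensus of 10 letters and the AP-1 letters TGANTCA. Tnf lies on the minus strand with the window chr17:35202008-35202257, Tnfrsf12a on the minus strand with chr17:23677450-23677699, and Tnfrsf8 on the minus strand with chr4:145315165-145315414. Tnfrsf9 lies on the plus strand and has a window for each of 2 starts, chr4:150919905-150920154 and chr4:150927749-150927998.
Tnf: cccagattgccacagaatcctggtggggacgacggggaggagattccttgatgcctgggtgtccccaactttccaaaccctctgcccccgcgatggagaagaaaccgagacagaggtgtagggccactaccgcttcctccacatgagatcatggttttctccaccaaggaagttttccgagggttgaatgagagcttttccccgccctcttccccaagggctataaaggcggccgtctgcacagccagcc
Tnfrsf12a: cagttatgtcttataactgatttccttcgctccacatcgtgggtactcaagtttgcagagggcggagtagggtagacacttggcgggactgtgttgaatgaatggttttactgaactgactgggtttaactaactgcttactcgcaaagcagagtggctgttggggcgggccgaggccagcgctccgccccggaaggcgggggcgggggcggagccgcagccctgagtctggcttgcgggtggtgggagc
Tnfrsf8: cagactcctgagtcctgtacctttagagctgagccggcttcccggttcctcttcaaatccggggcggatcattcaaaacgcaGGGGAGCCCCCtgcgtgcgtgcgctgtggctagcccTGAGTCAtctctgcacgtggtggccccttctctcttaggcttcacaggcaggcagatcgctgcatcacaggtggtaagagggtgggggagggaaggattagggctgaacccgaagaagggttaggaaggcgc
Tnfrsf9, start 1: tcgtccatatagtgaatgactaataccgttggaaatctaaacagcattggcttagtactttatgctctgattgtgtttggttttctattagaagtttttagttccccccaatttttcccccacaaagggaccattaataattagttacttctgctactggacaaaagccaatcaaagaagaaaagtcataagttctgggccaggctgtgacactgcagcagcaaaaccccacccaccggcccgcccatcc
Tnfrsf9, start 2: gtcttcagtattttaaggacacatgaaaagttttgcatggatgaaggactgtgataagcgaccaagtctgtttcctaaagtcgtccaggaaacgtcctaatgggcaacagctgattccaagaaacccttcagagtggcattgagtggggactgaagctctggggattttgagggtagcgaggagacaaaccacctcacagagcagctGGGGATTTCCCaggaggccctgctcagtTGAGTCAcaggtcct
The Tnfrsf8 window holds 2 overlapping NF-kB matches between bases 168 and 158 before the start and TGANTCA at bases 132 to 126. The window of the second Tnfrsf9 start holds 2 overlapping NF-kB matches between bases 43 and 33 and TGANTCA at bases 15 to 9. The NF-kB and TGANTCA matches do not overlap each other in either window. The letters of neither motif occur in the windows of Tnf, Tnfrsf12a or the first Tnfrsf9 start, which says nothing about binding elsewhere. RefSeq windows were found for 34 of the 43 members, 38 windows in all. The NF-kB consensus occurred in 4 of these 38 and in 7.25% of all 32851 windows of that length, and TGANTCA in 5 of 38 and in 6.75%. A match is a description of letters, not a bound site.

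Array medians of the log2 signal ran from 4.80 to 5.02, and levels of different probe sets are not compared. Sting1, the targeted gene of SKO and DKO, lay between 4.13 and 4.40 on their 6 arrays and between 6.87 and 8.09 on the IL10KO arrays. Among WT arrays it was 7.51 and 6.40 in replicates 1 and 2 but 4.56 in the library labelled WT replicate 3, near the SKO and DKO arrays, so the counts and called genes of the IL10KO and WT comparison are also given without that library. Il10 was 3.59 to 3.80 in WT and 4.59 to 5.47 in IL10KO, and since it is not stated which part of the gene was deleted this probe set checks nothing. Colonic epithelium markers averaged 10.53 to 10.80 in IL10KO and 10.83 to 11.08 elsewhere. Other tissue also moved with single arrays or groups. Pancreatic acinar markers averaged 8.73 and 11.46 in WT replicates 1 and 2 and at most 5.32 on all other arrays. Stratified squamous and sebaceous markers averaged 5.57, 7.39 and 7.19 in IL10KO and 5.36 in DKO replicate 3, against at most 4.68 on the rest. Neutrophil markers averaged 5.43 to 7.09 in IL10KO and 3.80 to 3.95 elsewhere, and smooth muscle markers 9.50 to 9.76 in IL10KO and 10.32 to 10.61 elsewhere.

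**Figure D1:**
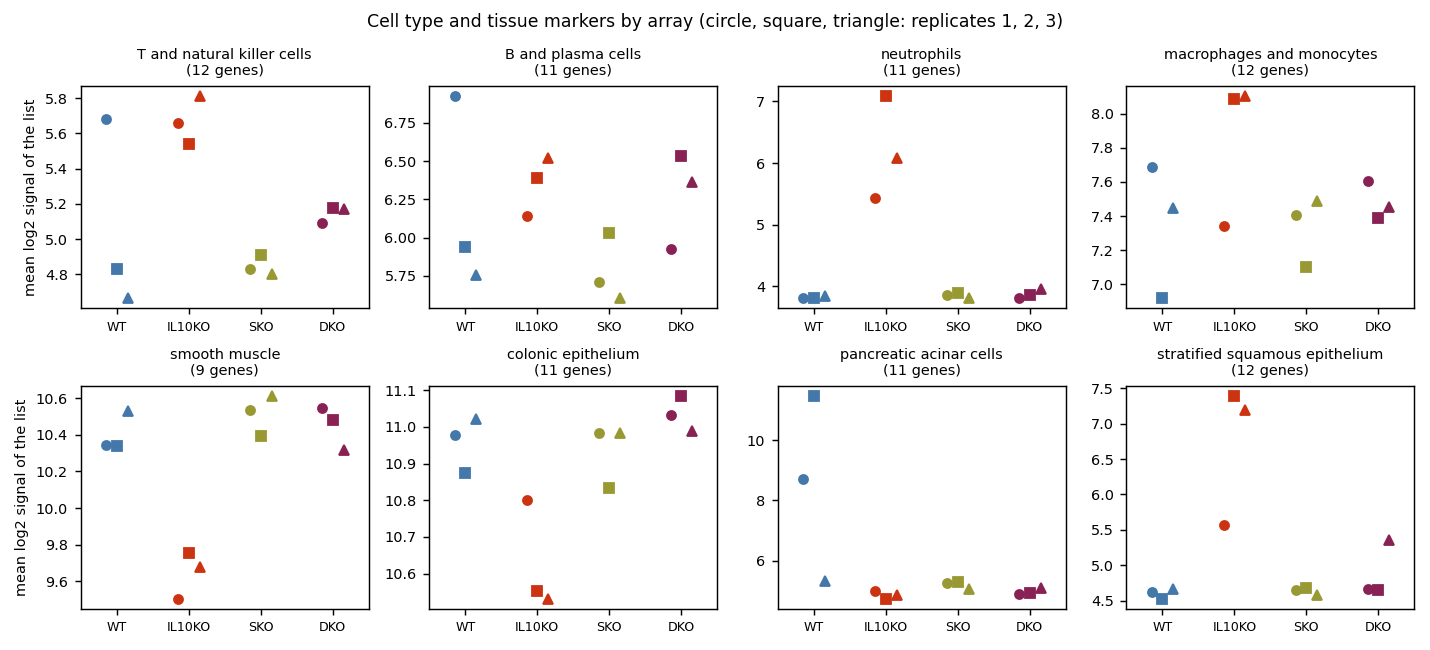
Mean log2 signal of the markers of selected cell types and tissues (vertical axis) in each of the 12 arrays, grouped by genotype. Acinar markers stand high in WT replicates 1 and 2, and neutrophil and squamous markers stand high in the 3 IL10KO arrays. Squamous markers are also raised, less so, in DKO replicate 3.

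The IL10KO colon was compared with WT to see which members differ when interleukin-10 alone is missing. Tnf itself rose, and so did 7 receptors, among them Tnfrsf8 (CD30), Tnfrsf9 (CD137), Tnfrsf12a (the receptor of TWEAK) and the decoy Tnfrsf23, while Tnfrsf11a (RANK) fell. In all 9 of the 43 members, 20.9%, were called, that is, had a Benjamini-Hochberg adjusted p under 0.05 in limma's moderated test over all genes. The background was 8.14% of the 22180 genes called, 3.12% higher and 5.01% lower, against 8 members higher and 1 lower. Of the ligands 1 of 16 was called and of the receptors 8 of 27. The members' median difference was 0.22 on the log2 scale against 0.03 over all genes. Differences were positive for 31 of 43 members and for 11889 of all 22180 genes. Without the library labelled WT replicate 3, 6 members were called, all higher (Tnf, Tnfrsf8, Tnfrsf9, Tnfrsf12a, Tnfrsf23 and Tnfrsf11b), against 4% of all genes called, and the members' median was 0.15. Without WT replicate 1, 4 members and 4.48% of all genes were called, and without WT replicate 2, 4 members and 3.53%. With each array centred on its median, Tnfrsf1b, Tnfrsf18 and Tnfrsf11b lost their calls (limma adjusted p = 0.112, 0.0525 and 0.111). The other called members kept theirs, and 6.65% of all genes were called.

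DKO was compared with IL10KO to see how the colon lacking interleukin-10 differs when STING is missing too. Tnf, Tnfrsf8, Tnfrsf9, Tnfrsf12a, Tnfrsf23 and Tnfrsf1b were lower in DKO, and Tnfrsf11a and the ligand Tnfsf15 were higher. These 8 members, 18.6% of 43, stand beside 5.79% of all genes called, 3.34% higher and 2.45% lower. With each array centred on its median the split moved to 3 members higher and 4 lower. Ngfr joined, at 0.53 (limma adjusted p = 0.0481), and Tnf (limma adjusted p = 0.0543) and Tnfrsf1b (limma adjusted p = 0.104) dropped out. Over all genes the split moved from 740 of 1284 called genes higher to 768 of 1110. The members' median difference was -0.24 against -0.04 over all genes, with 13 of 43 positive, against 10093 of all 22180 genes. Of the 8, 7 were also called between IL10KO and WT, each with the opposite sign. Both comparisons share the 3 IL10KO arrays, so the opposite signs are not independent of each other. Fewer members and fewer of all genes were called without DKO replicate 1 (4 members, 1.92% of all genes), replicate 2 (3 members, 2.27%) or replicate 3 (5 members, 4.22%). Arrays of the compared genotypes did not overlap for 15 members between IL10KO and WT, 11 higher and 4 lower, where 30% of all genes did not overlap (14% higher and 16% lower). Between DKO and IL10KO they did not overlap for 22 members, 6 higher and 16 lower, against 27.2% of all genes (13.4% higher and 13.8% lower).

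**Figure D2:**
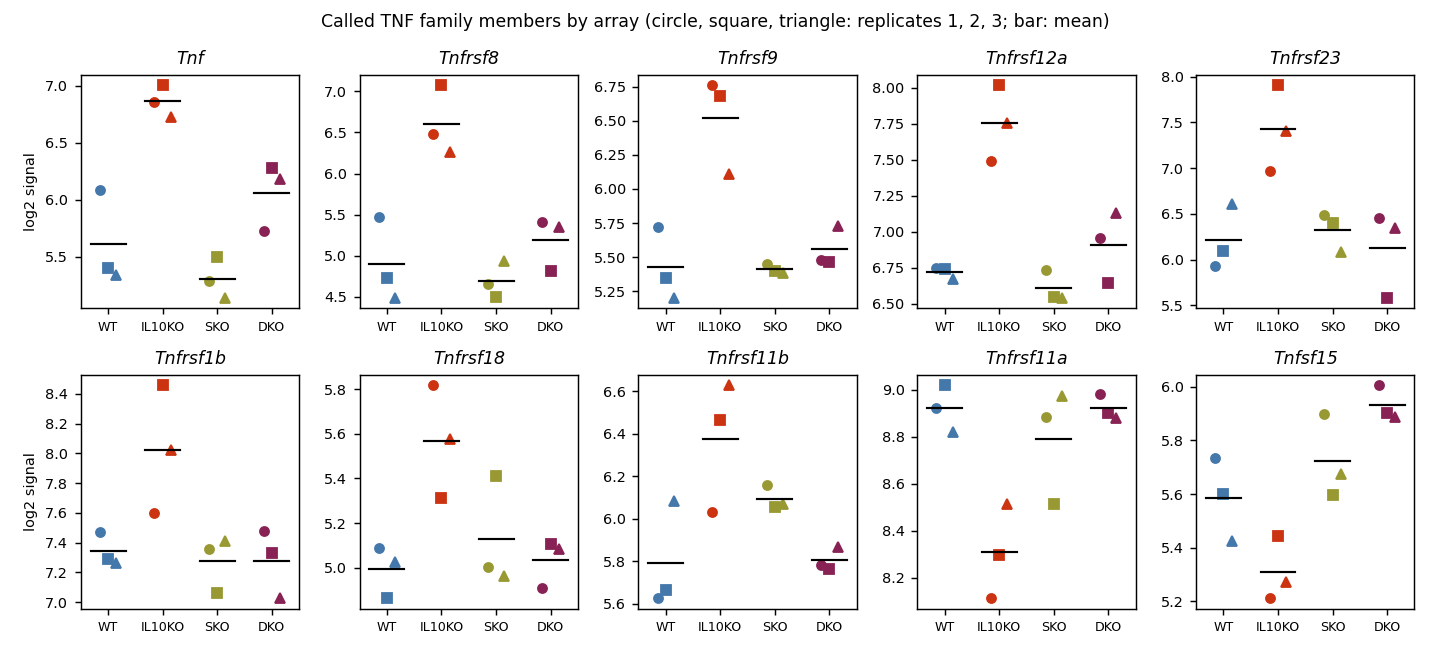
Log2 signal (vertical axis) of the 10 members called in any comparison, 1 point per array and a bar at the mean of the 3 arrays of each genotype. The IL10KO arrays lie above all others for Tnf, Tnfrsf8, Tnfrsf9, Tnfrsf12a and Tnfrsf23 and below every WT and DKO array for Tnfrsf11a.

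Of the TNF and lymphotoxin ligands only Tnf was called. Tnf, the founding cytokine of the family, read 6.09, 5.40 and 5.35 in WT, 6.86, 7.01 and 6.73 in IL10KO, 5.29, 5.50 and 5.14 in SKO, and 5.72, 6.28 and 6.19 in DKO. The IL10KO arrays were the highest of all 12, the DKO arrays lay below them and above every SKO array, and DKO overlapped WT through WT replicate 1. Tnf rose by 1.25 ± 0.20 (SE of the limma fit, as for all differences here, 3 arrays per genotype) in IL10KO over WT, 2.38-fold (limma adjusted p = 0.00312). The library labelled WT replicate 3 left aside, the rise was 1.12 (limma adjusted p = 0.0154). It fell from IL10KO to DKO, a change of -0.80 ± 0.20 (limma adjusted p = 0.0362). That call was lost without any 1 of the IL10KO arrays, the DKO arrays or SKO replicate 1 (limma adjusted p from 0.0544 to 0.16), with differences between -0.63 and -0.91. It was also lost with median centring (-0.72, limma adjusted p = 0.0543) and in a fit of only the genotypes compared (limma adjusted p = 0.0569). Lta and Ltb, which encode the lymphotoxin subunits, lie beside Tnf on chromosome 17 with no other protein-coding gene between them. Their differences between IL10KO and WT were 0.08 and 0.34 (limma adjusted p = 0.834 and 0.526), and WT replicate 1 was their highest array, with 5.09 for Lta and 6.94 for Ltb. Tnfsf14 (LIGHT) differed by 0.39 and by -0.55 in DKO against IL10KO and was not called. In bulk RNA more cells that express a gene and more RNA per cell cannot be told apart. Macrophage and monocyte markers averaged 6.92 to 7.69 in WT, 7.34 to 8.10 in IL10KO, 7.10 to 7.49 in SKO and 7.39 to 7.61 in DKO, with 3 of 12 called higher in IL10KO than in WT. Neutrophil markers had 10 of 11 called higher. Their part in the Tnf result was not tested.

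Among the receptors of these ligands Tnfrsf1b, the TNF receptor of leukocytes and endothelium, was called, barely. It read 7.47, 7.29 and 7.27 in WT, 7.60, 8.46 and 8.02 in IL10KO, 7.36, 7.06 and 7.41 in SKO, and 7.48, 7.33 and 7.03 in DKO. The IL10KO arrays were above all others, replicate 1 by a small margin. The difference from WT was 0.68 ± 0.20 (limma adjusted p = 0.0499) and that of DKO from IL10KO -0.75 ± 0.20 (limma adjusted p = 0.0424). The first call was lost without any array except IL10KO replicate 1 or SKO replicate 2, with limma adjusted p up to 0.138, reached without the library labelled WT replicate 3. The second was lost under the same omissions, with limma adjusted p up to 0.117. Median centring also lost both calls (limma adjusted p = 0.112 and 0.104). Tnfrsf1a, the widely expressed TNF receptor with a death domain, ranged from 8.63 to 9.45 over the 12 arrays. Its difference was 0.32 between IL10KO and WT and -0.37 between DKO and IL10KO, not called (limma adjusted p = 0.213 and 0.173). Quantile normalization brought both under the threshold, with 0.45 (limma adjusted p = 0.0481) and -0.50 (limma adjusted p = 0.0403). Ltbr, the lymphotoxin beta receptor, and Tnfrsf14, the receptor of LIGHT, differed between IL10KO and WT by 0.11 and 0.29, not called.

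The T cell co-stimulatory receptors held the largest rise of the family. Tnfrsf8 (CD30), found on activated lymphocytes, read 5.47, 4.73 and 4.49 in WT, 6.48, 7.07 and 6.26 in IL10KO, 4.65, 4.50 and 4.94 in SKO, and 5.41, 4.82 and 5.35 in DKO. No array of another genotype reached the IL10KO arrays. The rise was 1.71 ± 0.26 over WT, 3.27-fold (limma adjusted p = 0.00226). With the library labelled WT replicate 3 omitted it was 1.50 (limma adjusted p = 0.0107). The difference of DKO from IL10KO was -1.41 ± 0.26 (limma adjusted p = 0.00832). Tnfrsf9 (CD137), induced on activated T cells, read 5.72, 5.35 and 5.20 in WT, 6.76, 6.69 and 6.11 in IL10KO, 5.45, 5.40 and 5.38 in SKO, and 5.48, 5.47 and 5.73 in DKO. Again the IL10KO arrays stood above all 9 others. It rose by 1.09 ± 0.18 over WT (limma adjusted p = 0.00343) and fell from IL10KO to DKO, a change of -0.96 ± 0.18 (limma adjusted p = 0.00917). Without the library labelled WT replicate 3 its rise was 0.98 (limma adjusted p = 0.0176). Both receptors were called in both comparisons under all 18 alternatives.

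Tnfrsf18 (GITR), carried by regulatory and activated T cells, read 5.09, 4.86 and 5.02 in WT, 5.82, 5.31 and 5.58 in IL10KO, 5.01, 5.41 and 4.96 in SKO, and 4.91, 5.11 and 5.08 in DKO. IL10KO lay above WT and DKO but overlapped SKO replicate 2. The difference from WT was 0.58 ± 0.16 (limma adjusted p = 0.0435). Its call was lost in 9 of the 12 single omissions, including the library labelled WT replicate 3 (limma adjusted p = 0.102), and remained only without IL10KO replicate 2, SKO replicate 2 or SKO replicate 3. Its neighbour Tnfrsf4 (OX40) differed by 0.44 and was not called (limma adjusted p = 0.0901). Cd27 and Cd40 differed by 0.09 and 0.07, and WT replicate 1 was the highest Cd27 array with 4.60. None of the 6 ligands of these receptors was called. All 6 differences between IL10KO and WT were positive, as were those of 11889 of all 22180 genes. They ran from 0.20 (Tnfsf8, the ligand of CD30) to 0.49 (Tnfsf9, the ligand of CD137). Cd40lg and Tnfsf18 were dim, below their own array's lower quartile on all 12 arrays, and Cd70 on 9. The array has no detection calls, so a dim signal cannot be called absent. Markers of T and natural killer cells averaged 4.66 to 5.68 in WT, 5.54 to 5.81 in IL10KO, 4.80 to 4.91 in SKO and 5.09 to 5.17 in DKO, with WT replicate 1 inside the IL10KO range. Of these 12 markers, 3 were called higher in IL10KO than in WT and 0 were called between DKO and IL10KO by limma. In the latter comparison the unadjusted limma p was under 0.05 for 5 of the 12 and for 5403 of all 22180 genes. The part of these cells in the Tnfrsf8, Tnfrsf9 and Tnfrsf18 results was not tested.

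Among the death ligands and the death and decoy receptors, Tnfrsf23 and Tnfsf15 were called and the others were not. Tnfrsf23, a mouse decoy receptor for TRAIL, read 5.93, 6.09 and 6.61 in WT, 6.96, 7.91 and 7.40 in IL10KO, 6.49, 6.40 and 6.08 in SKO, and 6.45, 5.58 and 6.35 in DKO. All 3 IL10KO arrays were above all 9 others, replicate 1 the least. It rose by 1.21 ± 0.27 over WT (limma adjusted p = 0.0157). The rise was 1.41 with the library labelled WT replicate 3 omitted (limma adjusted p = 0.0162). Tnfrsf23 fell from IL10KO to DKO, a change of -1.30 ± 0.27 (limma adjusted p = 0.014). The first call was lost without WT replicate 1 or 2 (limma adjusted p = 0.0621 and 0.0619), and the second without DKO replicate 2 (limma adjusted p = 0.0663). Its neighbours on chromosome 7, Tnfrsf22, another decoy, and Tnfrsf26, differed between IL10KO and WT by -0.19 and -0.05. The 3 are close relatives, and whether their probe sets share signal was not tested. Tnfrsf10b, the mouse TRAIL death receptor, differed by -0.62 from WT (limma adjusted p = 0.139), with IL10KO replicate 1 the lowest array, and DKO was 0.75 above IL10KO (limma adjusted p = 0.093). Tnfrsf21, a death-domain receptor, differed by -0.29 from WT and was not called. Squamous and sebaceous markers had 9 of 12 called higher in IL10KO than in WT and 6 lower in DKO than in IL10KO. IL10KO replicate 1 was the lowest array of its genotype for Tnfrsf23 and for squamous, neutrophil and macrophage marker means alike. DKO replicate 3 had a squamous mean of 5.36, against 4.66 and 4.65 in DKO replicates 1 and 2. Its Tnfrsf23 value of 6.35 lay between those of DKO replicates 1 and 2 (6.45 and 5.58). The part of squamous tissue or of these cells in the Tnfrsf23 result was not tested.

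Tnfsf15 (TL1A), a ligand known from the genetics of inflammatory bowel disease, was called only between DKO and IL10KO. It read 5.74, 5.60 and 5.42 in WT, 5.21, 5.44 and 5.27 in IL10KO, 5.90, 5.60 and 5.68 in SKO, and 6.0, 5.90 and 5.89 in DKO. The DKO arrays were above every IL10KO and WT array, and IL10KO overlapped WT through the library labelled WT replicate 3. DKO was higher than IL10KO by 0.62 ± 0.13 (limma adjusted p = 0.017), a call lost without DKO replicate 1 or 2 (limma adjusted p = 0.0773 and 0.0582). IL10KO differed from WT by -0.28 (limma adjusted p = 0.206). Its receptor Tnfrsf25 differed by 0.03 from WT and by 0.05 between DKO and IL10KO, and its neighbour Tnfsf8 by 0.20 and -0.23. Fasl, the ligand of Fas, was dim on all 12 arrays and missed the threshold, with 0.34 from WT (limma adjusted p = 0.0992) and -0.43 for DKO (limma adjusted p = 0.0542), and its IL10KO arrays overlapped no other array. Fas itself differed by 0.14 and 0.01. Tnfsf10 (TRAIL) had the widest spread within WT, 7.59, 5.95 and 5.57, and differed by -0.38 (limma adjusted p = 0.584).

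All 3 tissue remodelling receptors were called between IL10KO and WT, in both directions. Tnfrsf12a, the TWEAK receptor induced in injured tissue, read 6.75, 6.74 and 6.67 in WT, 7.49, 8.02 and 7.75 in IL10KO, 6.74, 6.55 and 6.54 in SKO, and 6.96, 6.64 and 7.13 in DKO. The IL10KO arrays lay above all others and the 3 WT arrays lay close together. It rose by 1.03 ± 0.16, 2.05-fold (limma adjusted p = 0.00224), and by 1.01 with the library labelled WT replicate 3 omitted (limma adjusted p = 0.0107). It fell from IL10KO to DKO, a change of -0.84 ± 0.16 (limma adjusted p = 0.00882). Tnfrsf11a (RANK), best known from osteoclasts and also present on gut epithelium, read 8.92, 9.02 and 8.82 in WT, 8.11, 8.30 and 8.52 in IL10KO, 8.88, 8.51 and 8.98 in SKO, and 8.98, 8.90 and 8.88 in DKO. IL10KO was below every WT and DKO array and overlapped SKO replicate 2. It fell by 0.61 ± 0.15 from WT (limma adjusted p = 0.025), and DKO was 0.61 ± 0.15 above IL10KO (limma adjusted p = 0.03). The first call was lost without IL10KO replicate 1 or any of the WT arrays, the library labelled WT replicate 3 among them (limma adjusted p = 0.0525 without it). The second was lost without IL10KO replicate 1 or any DKO array. Colonic epithelium markers averaged 10.87 to 11.02 in WT, 10.53 to 10.80 in IL10KO, 10.83 to 10.98 in SKO and 10.99 to 11.08 in DKO, with 2 of 11 called lower in IL10KO than in WT, and their part in the Tnfrsf11a result was not tested.

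Tnfrsf11b (osteoprotegerin), the soluble decoy of the RANK ligand, read 5.63, 5.67 and 6.08 in WT, 6.03, 6.47 and 6.63 in IL10KO, 6.16, 6.06 and 6.07 in SKO, and 5.78, 5.77 and 5.87 in DKO. IL10KO overlapped WT and SKO through its replicate 1 but not DKO. The difference from WT was 0.58 ± 0.17 (limma adjusted p = 0.046). Its call was lost in 9 of 12 single omissions and remained only without the library labelled WT replicate 3 (0.73, limma adjusted p = 0.0351), IL10KO replicate 1 or SKO replicate 2. Tnfsf11, the RANK ligand, read 4.24, 4.65 and 4.20 in WT, 5.30, 4.68 and 5.10 in IL10KO, 4.36, 4.69 and 4.37 in SKO, and 4.30, 4.55 and 4.84 in DKO. IL10KO replicate 2 reached only the level of the highest WT and SKO arrays. The difference from WT of 0.66 missed the threshold (limma adjusted p = 0.0533), and it was called without IL10KO replicate 2 (0.84, limma adjusted p = 0.0171) or without SKO replicate 2 (limma adjusted p = 0.0466). Ligand, receptor and decoy of the RANK system thus stood at 0.66, -0.61 and 0.58 between IL10KO and WT. Between DKO and IL10KO they stood at -0.46, 0.61 and -0.57, and there only the receptor Tnfrsf11a was called. Both comparisons share the IL10KO arrays, so the opposite signs are not independent. Fibroblast markers had 3 of 10 called higher and 1 lower between IL10KO and WT, with array means of 8.69 to 9.03 in IL10KO and 8.55 to 8.70 in WT. Smooth muscle markers had 7 of 9 called lower. Their part in these results was not tested.

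No member of the B cell group was called. Tnfsf13b (BAFF), the survival factor of B cells, differed by 0.34 between IL10KO and WT (limma adjusted p = 0.215). Its receptors Tnfrsf13c, Tnfrsf13b and Tnfrsf17 differed by 0.38, 0.25 and -0.01. Tnfrsf13c (BAFF receptor) read 7.30, 6.66 and 5.88 in WT, 7.06, 6.92 and 7.0 in IL10KO, 5.94, 6.96 and 6.15 in SKO, and 6.13, 6.85 and 7.09 in DKO. WT, SKO and DKO each held arrays near both ends of this range, and the IL10KO arrays lay close together inside it. B and plasma cell markers averaged 6.93, 5.94 and 5.75 in the 3 WT arrays, 6.14 to 6.52 in IL10KO, 5.60 to 6.03 in SKO and 5.93 to 6.54 in DKO, with WT replicate 1 the highest of all 12 arrays. The ectodermal and neural members were not called either. Ngfr, the neurotrophin receptor of neurons and glia, had its 3 IL10KO arrays (5.37, 5.07 and 5.41) below all others and differed by -0.41 from WT (limma adjusted p = 0.0969). Enteric neuron and glia markers averaged 5.20 to 5.37 in IL10KO and 5.59 to 5.81 elsewhere, with 2 of 8 called lower, and their part in the Ngfr values was not tested. Eda, Edar, Eda2r and Tnfrsf19 differed by -0.18, 0.16, -0.08 and -0.12.

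**Figure D3:**
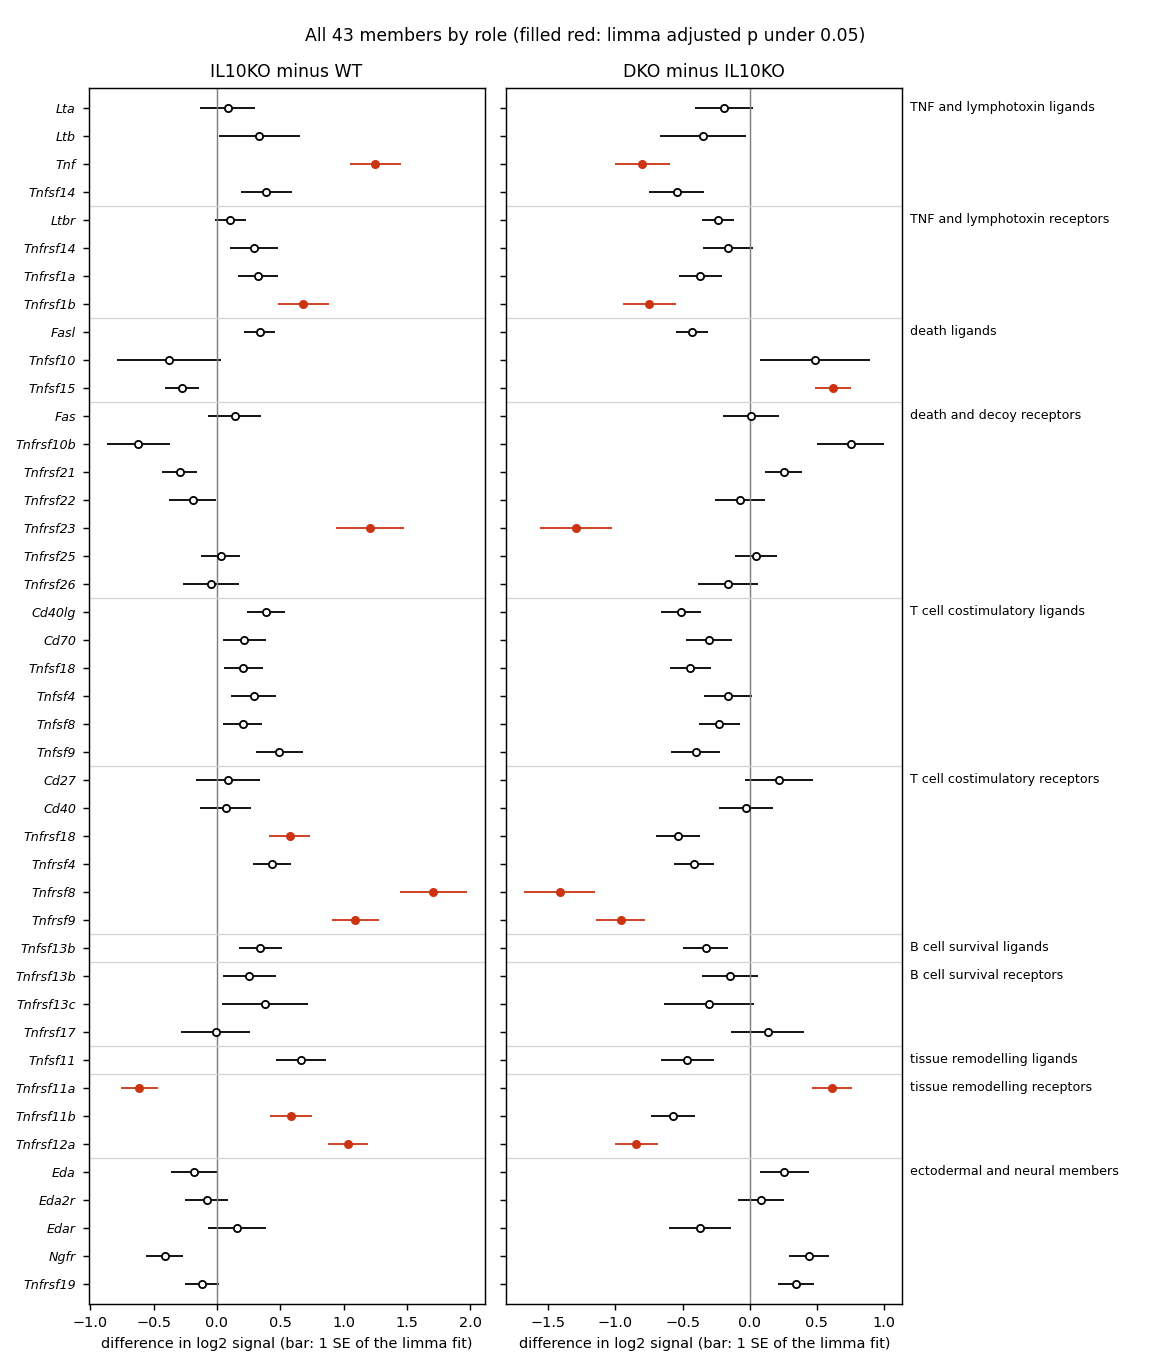
Difference in log2 signal of each of the 43 members between IL10KO and WT and between DKO and IL10KO (horizontal axis), grouped by role, with a bar of 1 SE of the limma fit to each side and called members in filled red. Called members stand out in the receptor groups, and Tnfrsf11a and Tnfsf15 are the called members with a positive value for DKO minus IL10KO.

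DKO, SKO and WT were compared to see whether members differ once STING is missing. No member was called between DKO and WT by limma, where 0.0451% of all genes were. The unadjusted limma p was under 0.05 for 2 of 43 members and for 648 of all 22180 genes. The 9 members called in IL10KO stood in DKO at differences from WT of 0.45 for Tnf (95% interval 0.01 to 0.89), 0.29 for Tnfrsf8 (-0.27 to 0.86), 0.14 for Tnfrsf9 (-0.26 to 0.53), 0.19 for Tnfrsf12a (-0.15 to 0.53) and between -0.08 and 0.04 for the other 5. A p above the threshold does not show that DKO equals WT, and the interval of Tnf reaches 0.89. SKO and WT gave no called member by limma and 0% of all genes (1 member and 454 genes at an unadjusted p under 0.05). DKO and SKO gave no called member by limma and 0.0451% of all genes (2 members and 1059 genes at an unadjusted p under 0.05). Tnf had all 3 DKO arrays above all 3 SKO arrays, with a difference of 0.75 (95% interval 0.31 to 1.19, limma adjusted p = 0.517). Arrays did not overlap for 4 members between DKO and WT, 1 between SKO and WT and 7 between DKO and SKO, against 9.4%, 6.21% and 11.1% of all genes. Without the library labelled WT replicate 3 no member was called in any of these 3 comparisons, where 0.311% of all genes were called between DKO and WT and 0.248% between SKO and WT.

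The loss of interleukin-10 was also compared between STING genotypes, as (DKO minus SKO) minus (IL10KO minus WT). No member was called by limma, with 0.645% of all genes called. The unadjusted limma p was under 0.05 for 12 of 43 members and for 3480 of all 22180 genes. The values were -0.50 for Tnf (95% interval -1.12 to 0.12, limma adjusted p = 0.411), -1.21 for Tnfrsf8 (-2.02 to -0.41, limma adjusted p = 0.172), -0.94 for Tnfrsf9 (limma adjusted p = 0.129), -0.73 for Tnfrsf12a (limma adjusted p = 0.171) and -1.41 for Tnfrsf23 (limma adjusted p = 0.125). Hence a call between IL10KO and WT, beside none between DKO and SKO, was not shown by this test to be a difference between the STING genotypes for any single member. No member was called either without the library labelled WT replicate 3. Single arrays decided 3 such calls: Tnfrsf9 was called without IL10KO replicate 3 (-1.15, limma adjusted p = 0.0409), and Tnfrsf23 (-1.64, limma adjusted p = 0.0468) and Tnfrsf11b (-1.04, limma adjusted p = 0.026) without IL10KO replicate 1. The share of all genes called was 0.55% without IL10KO replicate 3 and 1.42% without IL10KO replicate 1.

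**Figure D4:**
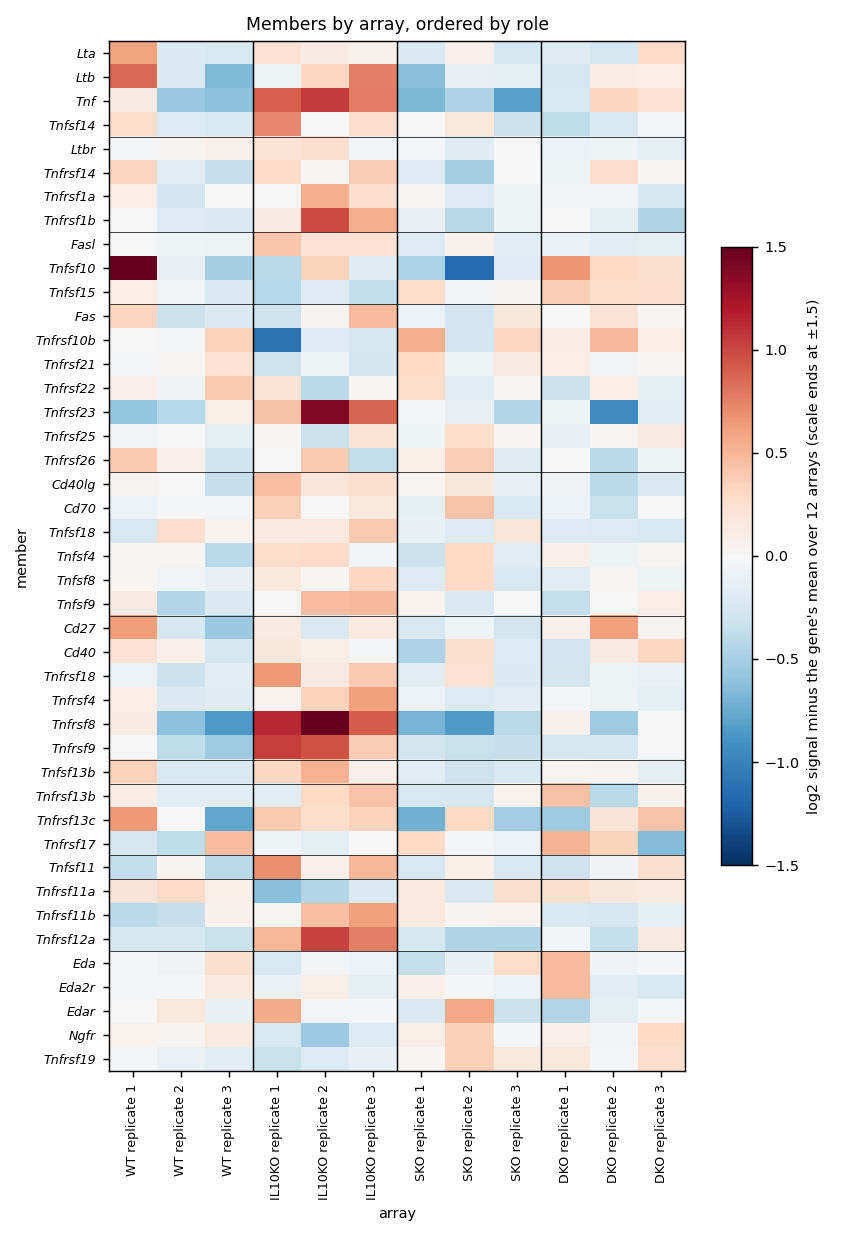
Log2 signal of the 43 members (rows, grouped by role) in the 12 arrays (columns, grouped by genotype), each row shown as the difference from its own mean over all arrays. Warm cells gather in the IL10KO columns for Tnf and several receptors, and in WT replicate 1 for Ltb, Lta, Cd27 and Tnfsf10.

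Members varied more within WT than other genes did. The median SD of the members over the 3 WT arrays was 0.230, against 0.132 over all genes, while in IL10KO it was 0.224 against 0.230, in SKO 0.195 against 0.186 and in DKO 0.184 against 0.154. WT replicate 1 was the highest WT array for 26 of the 43 members, 60.5%, and for 32.1% of all genes. Examples were Ltb, with 6.94 against 5.86 and 5.42, Lta, with 5.09 against 4.27 and 4.25, and Cd27, with 4.60 against 3.71 and 3.42. The same array had the highest WT means of T cell, B cell and macrophage markers (5.68, 6.93 and 7.69), and their part in these values was not tested. Without WT replicate 1 the members' median difference between IL10KO and WT was 0.36, against 0.03 over all genes, with 33 of 43 members positive.

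Genes that act with the family were taken from 4 lists, 68 genes of which 63 were measured. Between IL10KO and WT, 8 of the 63 were called higher and 1 lower (9 in all, where 8.14% of all genes were called). Between DKO and IL10KO 0 were higher and 9 lower, where 5.79% of all genes were called. Without the library labelled WT replicate 3, 7 were higher and 0 lower between IL10KO and WT, against 4% of all genes. Of the genes that TNF is known to induce, 7 of 19 were higher in IL10KO than in WT (median 0.75, 18 of 19 positive, against 11889 of all 22180 genes). In DKO 8 of 19 were lower than in IL10KO (median -0.72). Cxcl2, a chemokine for neutrophils, read 3.93, 4.29 and 3.92 in WT, 5.15, 6.01 and 5.63 in IL10KO, 4.03, 4.15 and 4.09 in SKO, and 3.57, 4.09 and 4.18 in DKO. Its IL10KO arrays stood apart from all others, with 1.55 ± 0.21 over WT (limma adjusted p = 0.00105). It was the only list gene called in the comparison of the interleukin-10 effect between STING genotypes, with -1.69 ± 0.30 (limma adjusted p = 0.0218). No list gene was called there without WT replicate 1 (0.329% of all genes called), any SKO array (0.248% to 0.338%), or DKO replicate 1 or 2 (0.266% and 0.225%). Without IL10KO replicate 1, 5 list genes and 1.42% of all genes were called there, against 0.645% of all genes in the full fit. Without the library labelled WT replicate 3 the Cxcl2 values were 1.48 over WT (limma adjusted p = 0.00518) and -1.63 for that effect (limma adjusted p = 0.0433). Mmp9, a matrix protease that is also a neutrophil marker, rose by 1.63 ± 0.25 (limma adjusted p = 0.0021) and Mmp3, a matrix protease of stromal cells, by 2.74 ± 0.44 (limma adjusted p = 0.00278). Il6, a cytokine of the acute phase, rose by 1.39, and the other 3 called genes by 1.07 to 1.29. Mmp9, Mmp3 and Il6 were also called without the library labelled WT replicate 3, at 1.74, 2.76 and 1.38. Neutrophil markers (10 of 11 called higher) moved with these genes, and their part was not tested. Without DKO replicate 2, 5 list genes were called between DKO and IL10KO in place of 9, and 2.27% of all genes in place of 5.79%.

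In the signalling machinery between receptor and target, 2 of 44 genes were called between IL10KO and WT, 1 in each direction. The share of all genes called was 8.14% there and 5.79% between DKO and IL10KO. Of 16 receptor adaptors and death genes only Ripk3, the kinase of necroptosis, was called. It read 7.42, 6.63 and 6.69 in WT, 7.75, 8.31 and 7.82 in IL10KO, 6.84, 6.54 and 6.52 in SKO, and 7.05, 6.97 and 6.87 in DKO, so that every IL10KO array lay above all others. The differences were 1.05 ± 0.21 over WT (limma adjusted p = 0.00917) and -0.99 for DKO against IL10KO (limma adjusted p = 0.0149), the latter lost without DKO replicate 2 (limma adjusted p = 0.0547). The first was 0.94 without the library labelled WT replicate 3 (limma adjusted p = 0.0427). None of the 14 NF-kB kinases and factors was called in either comparison by limma. The unadjusted limma p was under 0.05 for 0 of them, and for 5808 and 5403 of all 22180 genes. The list's median differences were -0.09 and 0.11. Of 14 inhibitors and feedback genes Tnip1, a partner of the deubiquitinase A20, fell from WT to IL10KO, a change of -0.67 (limma adjusted p = 0.0463). That call was lost with median centring (limma adjusted p = 0.0604) and in 10 of 12 single omissions, all but IL10KO replicate 2 and SKO replicate 2, with limma adjusted p up to 0.153 (0.116 without the library labelled WT replicate 3). In the list 0 were called between DKO and IL10KO by limma (4 of 14 at an unadjusted p under 0.05, against 5403 of all 22180 genes). The array measures RNA, and protein or modification of these factors was not analysed here.

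**Figure D5:**
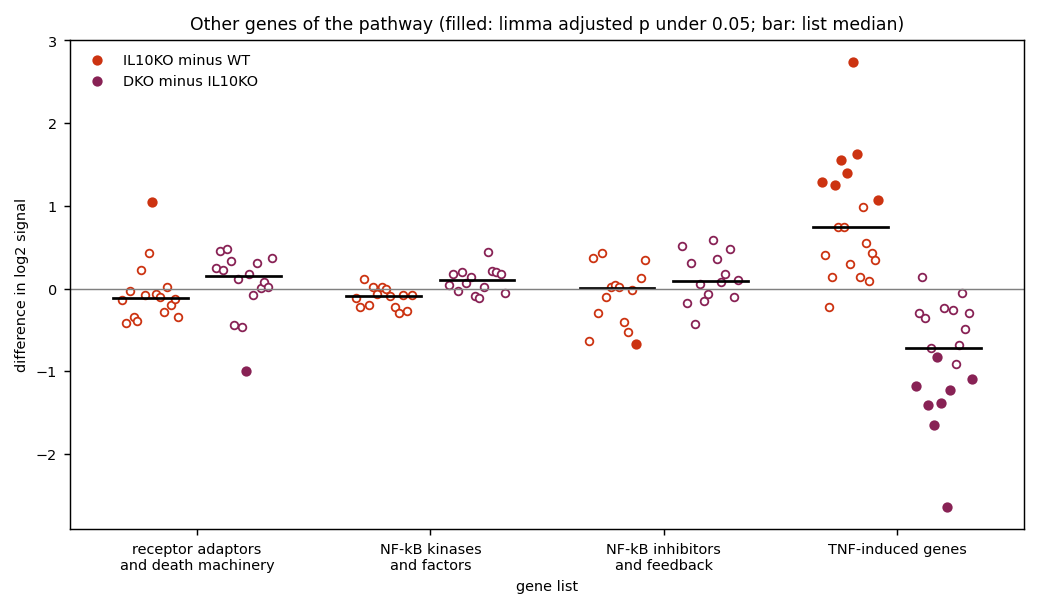
Difference in log2 signal of the genes of the 4 pathway lists (points, 1 per gene) between IL10KO and WT and between DKO and IL10KO, with called genes filled and a bar at each list's median. Called genes gather in the list of TNF-induced genes, and none lies among the NF-kB kinases and factors.

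Several members are neighbours in the genome with no other protein-coding gene between them in RefSeq. Tnfrsf1b and Tnfrsf8 on chromosome 4 were both called in both comparisons, in the same directions. In the cluster Ltb, Tnf and Lta on chromosome 17 only Tnf was called, and in the cluster Tnfrsf26, Tnfrsf22 and Tnfrsf23 on chromosome 7 only Tnfrsf23. The differences between neighbours were not tested. On chromosome 4 Tnfrsf18 was called between IL10KO and WT and Tnfrsf4 was not, and Tnfsf15 was called between DKO and IL10KO and Tnfsf8 was not.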

How the data were processed

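The authors deposited 1 table of log2 signals per probe set. Per the submitters' processing notes the software was Affymetrix Expression Console, version 1.3.1.187. Its settings for background and normalization and the array's genome build: not given in the sources used here. The log2 scale rests on the range of the values. The table has 41345 probe sets, of which 23521 have 1 gene symbol in the platform annotation. A gene was read from its brightest probe set, which gave 22180 genes, without a filter. Groups were taken from the genotype labels, and replicates were numbered in accession order, which pairs nothing. A single fit of limma 3.58.1 (R 4.3.3) held all 12 arrays with a mean per genotype (8 residual degrees of freedom, and 5.56 prior degrees of freedom). Tests were 2-sided, adjusted by Benjamini-Hochberg over all genes and called at an adjusted p under 0.05. The script was tested on simulated data. The members and lists were chosen with earlier results of these data known. Values of all arrays are given for the members called in any comparison and for Tnfsf11 and Tnfrsf13c. Other ligands or receptors of called members are given by differences or a range. Members near the threshold or with a spread described were chosen after their values were seen. Promoters come from RefSeq. Arrays have no read depth, and their number limits the precision.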

Additional observations from a re-analysis of the deposited data

How the results depend on the processing

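No paired analysis was possible because replicate numbers were given in accession order and the labels share none across genotypes. The 17 calls of single members were recomputed 306 times, under 18 alternatives each: 232 kept the call, 74 lost it and 0 reversed. Of the 18, 12 left out 1 array. A 2-fold minimum was applied to counts only and is not among the 18. Calls held under all 18 for Tnf, Tnfrsf8, Tnfrsf9 and Tnfrsf12a between IL10KO and WT, and for Tnfrsf8 and Tnfrsf9 between DKO and IL10KO. For 17 members (those called and the partners named with them), the 85 uncalled results had 1495 values under these alternatives, of which 14 became calls and 66 changed sign without a call. Other members, such as Ngfr, were followed in the counts. Against 9 members called between IL10KO and WT (8.14% of all genes), fitting only the genotypes compared gave 5 (3.17%, fewer arrays enter that fit), a 2-fold minimum 5 (2.26%), and single omissions 4 to 10 (3.53% to 13.8%). Against 8 between DKO and IL10KO (5.79%), the same gave 2 (2.2%), 2 (1.71%) and 3 to 11 (1.92% to 10.6%). In the comparison of the interleukin-10 effect between STING genotypes, omissions gave 0 to 2 members, against 0. The share of all genes called there was 0.225% to 1.7%, against 0.645%. Beside the same shares of all genes, the pathway lists gave 7 to 11 genes under omissions between IL10KO and WT (9 in the full fit). They gave 5 to 11 between DKO and IL10KO (9), and 0 to 5 in the comparison between STING genotypes (1). There, leaving out the dimmest genes gave 0, because it also left out Cxcl2, the list gene called in the full fit. A trended, robust variance prior gave 2 there, with 0.839% of all genes called, and the cause was not tested. Further alternatives were chosen after seeing the data, and each leaves a group of 1 array whose spread is assumed to be that of the other groups. Without WT replicates 1 and 2, which had the highest acinar markers, WT is only the library labelled WT replicate 3, with its low Sting1. Then 3 members, 4 list genes and 1.05% of all genes were called between IL10KO and WT, and 0 list genes in the comparison between STING genotypes. Without IL10KO replicates 2 and 3, which had the highest squamous markers, Tnfrsf9 stood at -1.19 in the comparison between STING genotypes. The precision is limited by 3 arrays per genotype, and Cd40lg, Fasl and Tnfsf18 were dim on all 12.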
